A study of Rattus norvegicus with 12 samples.

Results

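Iron and heme handling genes were followed in the livers of overfed rats through 5 probe sets of 4 genes, out of 8740 probe sets tested, which cover 4736 named genes. The genes asked for were Aco1, Tfrc, Tf, Fth1, Alas1 and Alas2, and a probe set was taken where the platform annotation named 1 of these symbols and no other gene. Aco1, Tfrc and Alas2 had 1 such probe set each and Alas1 had 2. Tf had 0, with 3 probe sets shared with another gene, and Fth1 had 0, with 1 shared, so neither gene is reported. The set was chosen by a measured value, the difference of Aco1 between fat levels under corn oil, so the corn oil fat values below are a description without a test.

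The animals were male Sprague-Dawley rats, and 12 Affymetrix arrays of 1 colour read pooled liver RNA, 3 for each of 4 diets. The diets were 70% corn oil, 5% corn oil, 70% olive oil and 5% olive oil, where the percentage is the fat share. All rats weighed 150 g at the start and received 17% of calories in excess for 21 days by stomach cannula (total enteral nutrition), and the diets were isocaloric. More fat therefore also meant less carbohydrate, and no rats fed freely were analysed here. How many rats went into each pool is not stated, and p-values therefore rest on the spread between pools.

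Iron enters cells bound to transferrin through the transferrin receptor, is stored in ferritin, and is built into heme and iron-sulfur clusters. Aco1 encodes a protein with alternate roles: with an iron-sulfur cluster it is the cytosolic aconitase, and without one it is iron regulatory protein 1, which binds RNA hairpins in mRNAs such as those of ferritin, the transferrin receptor and Alas2. Heme synthesis starts with 5-aminolevulinate synthase, encoded by Alas1 in most tissues and by Alas2 in red cell precursors. In liver much of the heme goes into cytochromes P450, and heme represses Alas1.

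The start regions of the genes the results turn on are shown from 150 bases before to 20 bases after the annotated transcript start, to show where each mRNA begins and how the regions differ. They are RefSeq sequences of build GRCr8. Capitals mark exact matches to GGGCGG (a GC box, bound by Sp1) or TGCGCA (a core bound by NRF-1), read on both strands, motifs chosen after the regions had been read.
Aco1, chr5:60055745-60055914, plus strand: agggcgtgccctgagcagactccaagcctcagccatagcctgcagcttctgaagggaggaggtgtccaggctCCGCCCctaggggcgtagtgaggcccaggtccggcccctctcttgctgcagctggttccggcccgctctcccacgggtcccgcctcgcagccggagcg
Tfrc, chr11:81690299-81690468, minus strand: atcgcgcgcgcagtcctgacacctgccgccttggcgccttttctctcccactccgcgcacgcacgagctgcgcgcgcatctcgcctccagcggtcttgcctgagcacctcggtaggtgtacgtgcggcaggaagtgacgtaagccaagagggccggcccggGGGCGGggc
Alas1, chr8:115768623-115768792, minus strand: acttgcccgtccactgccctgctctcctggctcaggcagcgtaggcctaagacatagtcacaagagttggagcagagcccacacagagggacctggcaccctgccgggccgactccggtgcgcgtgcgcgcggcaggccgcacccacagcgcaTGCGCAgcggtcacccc

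In the full 300-base windows, 250 bases before and 50 after the start, Aco1 held 3 GC boxes and Tfrc 1, against 34.9% of 27457 rat windows with at least 1. Alas1 held 1 NRF-1 core, 4 bases into the transcript, and 7.68% of windows held that motif. The exact PPAR direct repeat, a motif named for the receptors that bind it, was in 0.0583% of windows and in none of these 3. A match is a description of letters and shows no binding. For Alas2 the annotated window lies inside the gene, so its sequence is not shown.

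The deposited values are on a log2 scale, centred so that the 12 values of a probe set have a median of 0, so they show differences between arrays and carry no absolute level, and liver markers cannot be checked for presence. Values below are log2 differences from that median, and changes are log2 differences between diets with the standard error (SE) of a limma model, 3 arrays per diet. The oils differed in a measure of RNA integrity. The 3'/5' index averages, for actin and GAPDH, the 3' control probe set minus the 5' one (log2). Both are centred over the 12 arrays, so it sets arrays against each other and is not a 3'/5' ratio. It ran from 0.16 to 1.502 on the 6 corn oil arrays and from -0.43 to -0.23 on the 6 olive oil arrays. The difference was 1.35 (exact permutation test, two-sided p = 0.00216, the smallest these arrays can give). Within an oil it differed by -0.56 between 70% and 5% corn oil (exact permutation p = 0.2) and by 0.018 between 70% and 5% olive oil (exact permutation p = 0.8). The smallest p that 3 arrays a side allow is 0.1. Oil and index overlap in no array, so their parts in a corn against olive difference cannot be told apart. Pool 3 of 5% olive oil stood apart in Lcn2, which encodes an iron-siderophore binding protein, at 6.19, where the other 11 arrays lay between -1.22 and 2.80.

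Aco1 was higher at 70% than at 5% fat with both oils. With corn oil it lay at 0.20, 0.49 and 0.17 at 70% fat, against -0.48, -0.44 and -0.40 at 5% fat. All 3 high-fat pools were above all 3 low-fat pools, and the change was 0.73 ± 0.09 (1.65-fold), the difference that chose the set. With olive oil it lay at 0.17, 0.12 and 0.29 at 70% fat, against -0.12, -0.13 and -0.21 at 5% fat. These groups did not overlap either, which held for 19.8% of all probe sets in that comparison. The olive oil change was 0.35 ± 0.09 (1.27-fold, 95% interval 0.14 to 0.55) and did not pass the test over all probe sets (limma adjusted p = 0.215).

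With olive oil 0 of the 5 probe sets passed the limma test, beside 0.435% of all probe sets. An unadjusted p below 0.05 was found for 1 of the 5, namely Aco1, and for 739 of the 8740. The Aco1 change with olive oil kept its direction in all 19 alternative settings, from 0.30 to 0.39, with adjusted p between 0.0808 and 0.623. With corn oil Aco1 passed, which follows from the choice of the set. Of the 4 other probe sets 0 passed, beside 2.11% of all probe sets, and 2 did not overlap between fat levels, beside 18.9%. These counts leave out Aco1 but rest on the corn oil arrays that the choice used.

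The order of the Aco1 means was 70% corn oil (0.29 ± 0.18, SD, n = 3), 70% olive oil (0.19 ± 0.09), 5% olive oil (-0.15 ± 0.04) and 5% corn oil (-0.44 ± 0.04). The groups at 70% fat overlapped, with a corn minus olive difference of 0.09 ± 0.09, which was -0.01 without pool 2 of 70% corn oil. At 5% fat every corn oil pool was below every olive oil pool, with a difference of -0.29 ± 0.09, which was -0.17 after a second quantile normalization. With the index added to the model that difference was 0.20 ± 0.21, the difference at 70% fat was 0.40 ± 0.15, and the fat changes were 0.56 ± 0.10 with corn oil and 0.35 ± 0.08 with olive oil. These are values without a test, other than the olive oil fat change.

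**Figure D1:**
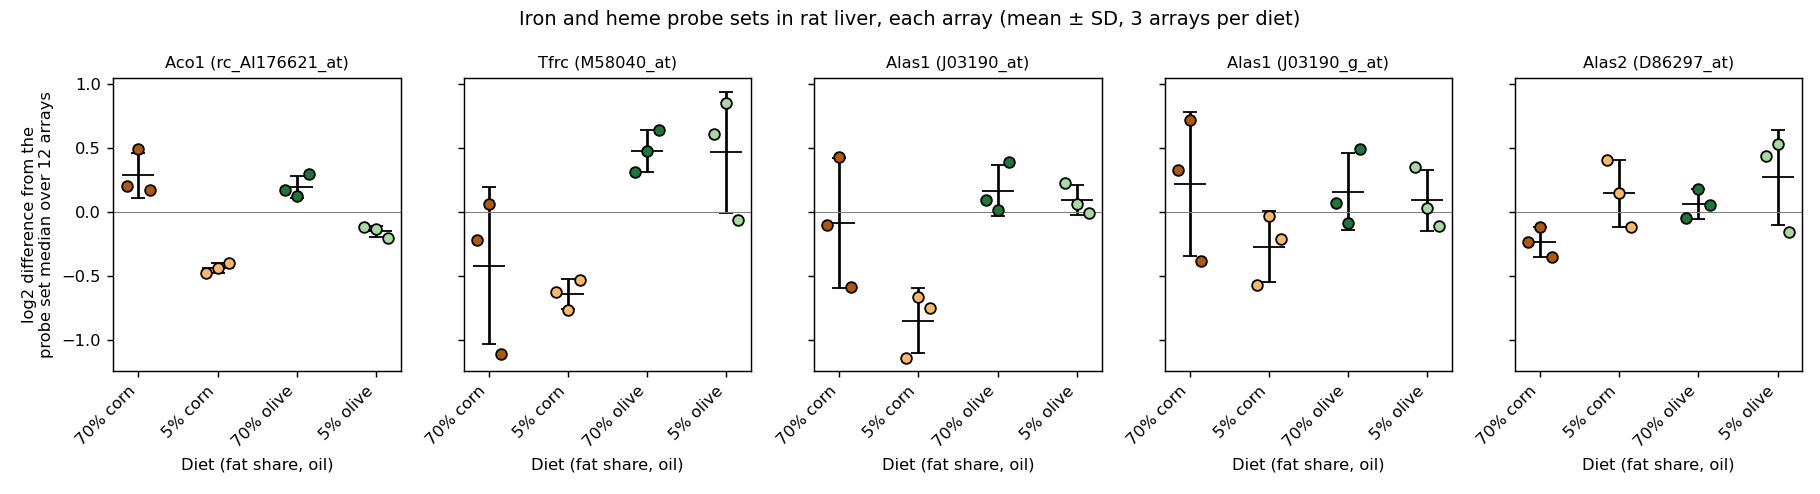
Each of the 5 probe sets on each of the 12 arrays, as log2 difference from the probe set's median; points are arrays, wide bars are means and whiskers are SD (3 arrays per diet). Aco1 lies above 0 on all 6 arrays of 70% fat and below 0 on all 6 arrays of 5% fat, while Tfrc is lower with corn oil at both fat levels.

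The genes most like Aco1 over the 12 arrays, among 4736 named genes, were Decr1, Eci1, Impa2, Cpt2 and Cidea. Decr1, a mitochondrial reductase used in the breakdown of unsaturated fatty acids, had a Pearson r of 0.97 with Aco1. Eci1, an isomerase of the same organelle, had 0.95, and Impa2, an inositol monophosphatase, had 0.94. Cpt2, which forms acyl-CoA inside mitochondria, had 0.93 and Cidea, a lipid droplet protein, had 0.90. These values describe 12 points that share arrays and diets. After each diet's mean was subtracted the r with Aco1 was 0.80 for Decr1, 0.67 for Impa2, 0.51 for Cidea, 0.45 for Cpt2 and 0.39 for Eci1.

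Their sizes differed from that of Aco1. Decr1 changed by 1.07 between fat levels with corn oil and by 0.69 with olive oil, and Eci1 by 1.29 and 0.90. Aco1, at 0.73 and 0.35, had the smallest fat change of the 6 genes with each oil. Cpt2, the next, changed by 0.76 with corn and 0.57 with olive oil. Except for pool 2 of each olive oil diet in Cidea, at about 0, all 6 genes lay above 0 on every array of 70% fat and below 0 on every array of 5% fat. The other 5 genes were picked for their likeness to Aco1 on these same arrays, so the shared split follows from the choice. Where a gene had several probe sets, their mean was used.

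**Figure D2:**
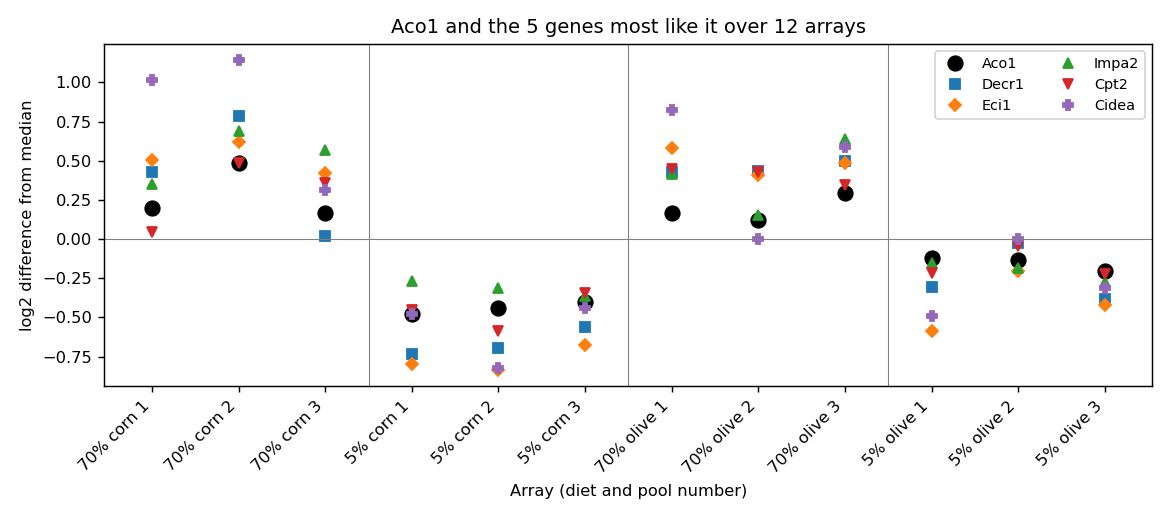
Aco1 (black circles) and the 5 genes with the highest correlation with it, on each of the 12 arrays, as log2 difference from the median. Picked for their likeness to Aco1 on these arrays, the 5 genes are like it high at 70% fat and low at 5% fat with either oil. Aco1 has the narrowest range.

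Tfrc, the receptor that takes up transferrin-bound iron, was lower with corn than with olive oil at 5% fat, and no difference with fat level was detected with olive oil. It lay at -0.22, 0.06 and -1.11 with 70% corn oil, against 0.31, 0.47 and 0.63 with 70% olive oil. At 5% fat it lay at -0.63, -0.77 and -0.54 with corn oil, against 0.60, 0.85 and -0.06 with olive oil. The oils did not overlap at either fat level, and the spread was widest in 70% corn oil, where pool 3 was the lowest of all arrays.

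Tfrc was 2.15-fold lower with corn than with olive oil at 5% fat (-1.11 ± 0.27, limma adjusted p = 0.014). At 70% fat the difference was -0.89 ± 0.27 (limma adjusted p = 0.0647), which missed the threshold. Without pool 3 of 70% corn oil it was -0.55 (limma adjusted p = 0.176), without pool 2 of that diet -1.14 (limma adjusted p = 0.0171), and with the index -0.13 ± 0.46. The call at 5% fat was lost without pool 2 of 5% corn oil (-1.05, limma adjusted p = 0.051) or pool 2 of 5% olive oil (-0.91, limma adjusted p = 0.0638), and with the index as a covariate the difference was 0.07 ± 0.66. Between fat levels Tfrc differed by 0.22 ± 0.27 with corn oil, by -0.02 without pool 2 and 0.57 without pool 3 of 70% corn oil, and by -0.18 with the index. With olive oil the difference was 0.01 ± 0.27 (95% interval -0.59 to 0.60, limma adjusted p = 0.999).

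The genes most like Tfrc were Pctp, which carries phosphatidylcholine (r = 0.97 over 12 arrays), the adhesion molecule Ceacam1 (r = 0.96) and Rbbp7, a histone-binding protein (r = 0.95). After the diet means were subtracted these were 0.92, 0.88 and 0.85. Pctp, picked for its likeness to Tfrc on these same arrays, differed between corn and olive oil by -0.65 at 70% and -0.97 at 5% fat.

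Alas1, the rate-limiting enzyme of heme synthesis in liver, was read by 2 probe sets that differed in size. On probe set J03190_at it lay at -0.10, 0.42 and -0.59 with 70% corn oil, against -1.14, -0.66 and -0.75 with 5% corn oil. Every high-fat pool was above every low-fat pool, though pool 3 of 70% corn oil came close to the highest low-fat pool. The change with corn oil was 0.76 ± 0.21 (1.70-fold), given without a test. It was 0.51 without pool 2 and 1.01 without pool 3 of 70% corn oil. On probe set J03190_g_at the pools lay at 0.32, 0.72 and -0.39 with 70% corn oil, against -0.57, -0.03 and -0.22 with 5% corn oil. Here the groups overlapped, and the change was 0.49 ± 0.25, with 0.24 without pool 2 and 0.79 without pool 3 of 70% corn oil.

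With olive oil no change of Alas1 with fat level was detected. On J03190_at it lay at 0.09, 0.01 and 0.39 at 70% fat, against 0.22, 0.06 and -0.01 at 5% fat, a change of 0.07 ± 0.21 (95% interval -0.39 to 0.54, limma adjusted p = 0.967). On J03190_g_at the change was 0.07 ± 0.25 (95% interval -0.48 to 0.62, limma adjusted p = 0.976). The groups overlapped on both probe sets.

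Between oils, J03190_at was 1.92-fold lower with corn than with olive oil at 5% fat (-0.94 ± 0.21, limma adjusted p = 0.00882), with no overlap of the pools. On J03190_g_at the same difference was -0.36 ± 0.25 (limma adjusted p = 0.354), and the mean of both probe sets differed by -0.65 (limma adjusted p = 0.072 on 1 value per gene). At 70% fat the differences were -0.25 ± 0.21 on J03190_at (limma adjusted p = 0.543) and 0.06 ± 0.25 on J03190_g_at (limma adjusted p = 0.922). The call on J03190_at held without each array in turn. With the index as a covariate the difference at 5% fat turned to 0.39 ± 0.41 on J03190_at and 0.90 ± 0.57 on J03190_g_at, and the corn oil fat change was 0.31 ± 0.20 and 0.06 ± 0.28. Within corn oil, pool 2 of 70% had both the lowest index of the 6 arrays (0.16) and the highest Alas1 value on each probe set. That pool was also the highest of the 6 for Aco1 (0.49) and Tfrc (0.06), but not for Alas2.

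Over the 12 arrays the genes most like Alas1 were Pik3r2, a regulatory subunit of phosphoinositide 3-kinase (r = 0.90), Dio1, which activates thyroid hormone (r = 0.89), and Nr2f6, an orphan nuclear receptor (r = 0.89). After the diet means were subtracted these were 0.82, 0.91 and 0.82.

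**Figure D3:**
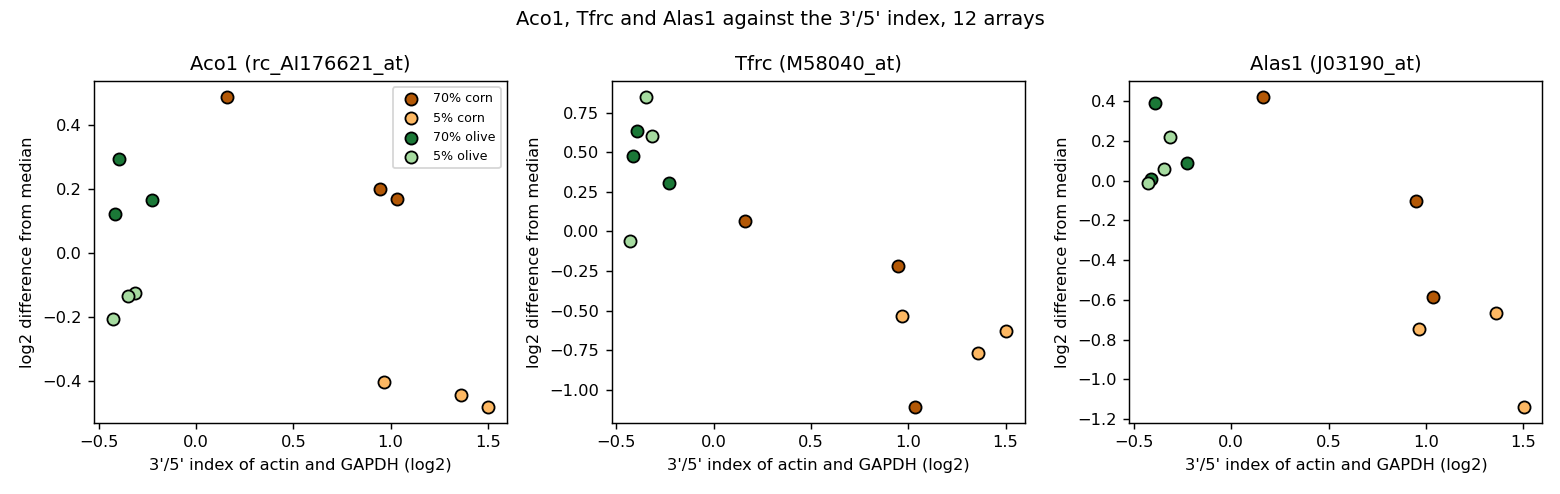
Aco1, Tfrc and Alas1 (log2 difference from median) plotted against the 3'/5' index of the same array (log2), with 1 point per array coloured by diet. All 6 corn oil arrays lie right of the 6 olive oil arrays; Aco1 separates the fat levels within each oil, and Tfrc separates the oils at each fat level.

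Alas2, the synthase of red cell precursors, was lower at 70% fat with corn oil. It lay at -0.24, -0.12 and -0.36 with 70% corn oil, against 0.40, 0.15 and -0.12 with 5% corn oil, a change of -0.38 ± 0.17 given without a test. The groups met at -0.12, where the highest high-fat pool lay just below the lowest low-fat pool. With olive oil it lay at -0.05, 0.18 and 0.05 at 70% fat, against 0.43, 0.53 and -0.16 at 5% fat. These overlapped, and the change was -0.21 ± 0.17 (95% interval -0.58 to 0.17, limma adjusted p = 0.858). Corn minus olive oil was -0.30 ± 0.17 at 70% fat (limma adjusted p = 0.338), with no overlap of the pools, and -0.12 ± 0.17 at 5% fat (limma adjusted p = 0.671), with overlap.

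The genes most like Alas2 were 3 globin genes, which encode the chains of hemoglobin. Over 12 arrays r with Alas2 was 0.93 for Hba-a3, 0.91 for Hbb and 0.90 for Hbb-b1, and after the diet means were subtracted it was 0.91, 0.84 and 0.85. Hbb lay at -0.74, -0.55 and -0.30 with 70% corn oil, against 0.72, 0.29 and -0.16 with 5% corn oil. With olive oil it lay at -0.16, 0.17 and 0.02 at 70% fat, against 0.58, 0.73 and -0.02 at 5% fat. The pools of 5% fat that were high in Hbb, pools 1 and 2 with each oil, were also those high in Alas2. Hbb was picked for its likeness to Alas2 on these same arrays, so the shared pools follow from the choice.

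Hbb changed between fat levels by -0.81 ± 0.23 with corn oil (limma adjusted p = 0.0874) and by -0.42 ± 0.23 with olive oil (limma adjusted p = 0.731), neither past the test. Probes of globin genes can bind related transcripts. Between diets 0.435% to 19.5% of all probe sets passed the limma test, depending on the comparison. Of the red cell marker list, 6 genes had probe sets, 8 in all, of which 0 passed in any comparison. The mean of these 8 ran from -0.22 to 0.10 over the pools of 70% corn oil, -0.09 to 0.18 with 5% corn oil, -0.00 to 0.02 with 70% olive oil and -0.07 to 0.21 with 5% olive oil. The other markers, Slc4a1, Rhag, Epor and Hbe1, changed by between -0.07 and 0.21 with corn oil. In pieces of liver, fewer cells of a type and less RNA per cell cannot be told apart, and the part of blood in the Alas2 values was not tested.

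**Figure D4:**
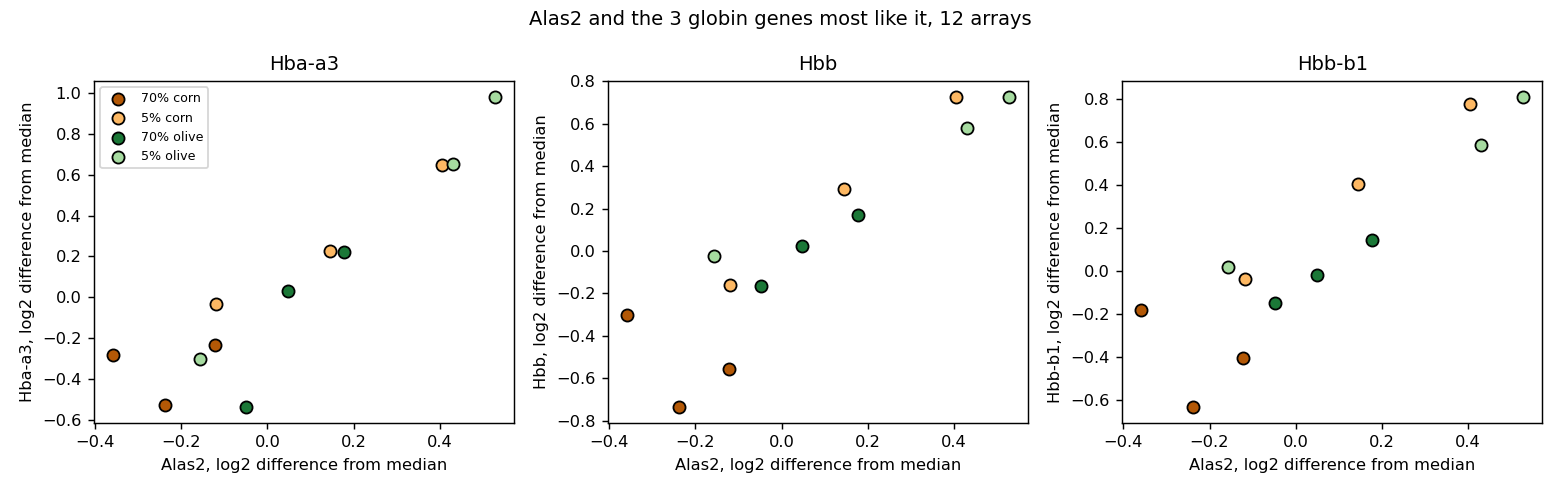
Alas2 against each of the 3 globin genes most like it (Hba-a3, Hbb and Hbb-b1), as log2 differences from the median, 1 point per array coloured by diet. The globin genes were picked for their likeness to Alas2 on these arrays. The pools of 70% corn oil sit at the lower left, and pools 1 and 2 of 5% olive oil and pool 1 of 5% corn oil at the upper right. Pool 3 of 5% olive oil, at -0.16 in Alas2, lies apart from the other pools of its diet.

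Across the 4 probe sets other than Aco1, 2 passed between corn and olive oil at 5% fat, where 19.5% of all probe sets passed, and 0 passed at 70% fat, where 8.51% did and 1 of the 4 had an unadjusted p below 0.05. Groups did not overlap for 2 of the 4 at 5% fat, beside 41.3% of all probe sets, and for 2 of the 4 at 70% fat, beside 27.2%. With the index as a covariate 0 of the 8740 probe sets passed in either oil comparison, so no oil call named here passed in that fit. Oil and index overlap in no array, and standard errors grew in it, for Tfrc at 5% fat from 0.27 to 0.66. That fit therefore cannot tell whether an oil difference remains apart from the index.

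Some marker genes of liver cell types also differed between the oils in the same arrays. At 5% fat 10.1% of all probe sets were higher and 9.36% lower with corn oil. Of 17 stellate cell probe sets 6 were higher and 0 lower, with Col1a1, a collagen chain, at 2.29 ± 0.40 (limma adjusted p = 0.0021). The mean of that list ran from 0.08 to 0.39 in the pools of 5% corn oil, against -0.26 to -0.05 in those of 5% olive oil. Of 30 hepatocyte probe sets 3 were higher and 8 lower. Cps1, an enzyme of the urea cycle, was at -2.52 ± 0.29 on 1 probe set (limma adjusted p = 0.000289). Hpd, of the same list, was at 1.16 ± 0.17 on 1 probe set (limma adjusted p = 0.000802). The list mean ran from -0.17 to -0.12 with corn oil, against -0.03 to 0.10 with olive oil. Of 10 macrophage probe sets 4 were lower and 0 higher, and the list mean ran from -0.35 to 0.10 with corn oil, against 0.03 to 0.35 with olive oil. Of 6 lymphocyte probe sets 1 was higher and 0 lower, and the list median was 0.07. The higher one was 1 of the probe sets of Ptprc, at 1.27 ± 0.17 (limma adjusted p = 0.000416), and the gene's other reading did not pass. Of 6 endothelial probe sets 2 were higher and 1 lower, as were 2 and 1 of 4 bile duct probe sets. At 70% fat 3.96% of all probe sets were higher and 4.55% lower. The calls there were 1 higher for stellate cells, 1 higher for endothelium, 2 lower for hepatocytes and 1 lower for macrophages. With fat level under corn oil 2 hepatocyte probe sets rose and 1 lymphocyte probe set fell, beside 1.3% and 0.801% of all probe sets. With olive oil 0 passed in these lists (38 of all 8740 did). The part of cell makeup in the values of the iron and heme genes was not tested.

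The fat changes with corn oil minus those with olive oil were 0.38 ± 0.13 for Aco1, 0.21 ± 0.39 for Tfrc, 0.69 ± 0.30 and 0.42 ± 0.36 for the 2 Alas1 probe sets, and -0.18 ± 0.24 for Alas2. That of Aco1 was 0.25 after a second quantile normalization. They contain the corn oil change that chose the set and are given without a test. In that comparison limma passed 0 of 8740 probe sets (0%), with 1028 at an unadjusted p below 0.05. With the index as a covariate the values were 0.21 for Aco1, -0.20 for Tfrc, 0.22 and -0.03 for Alas1 and -0.12 for Alas2.

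**Figure D5:**
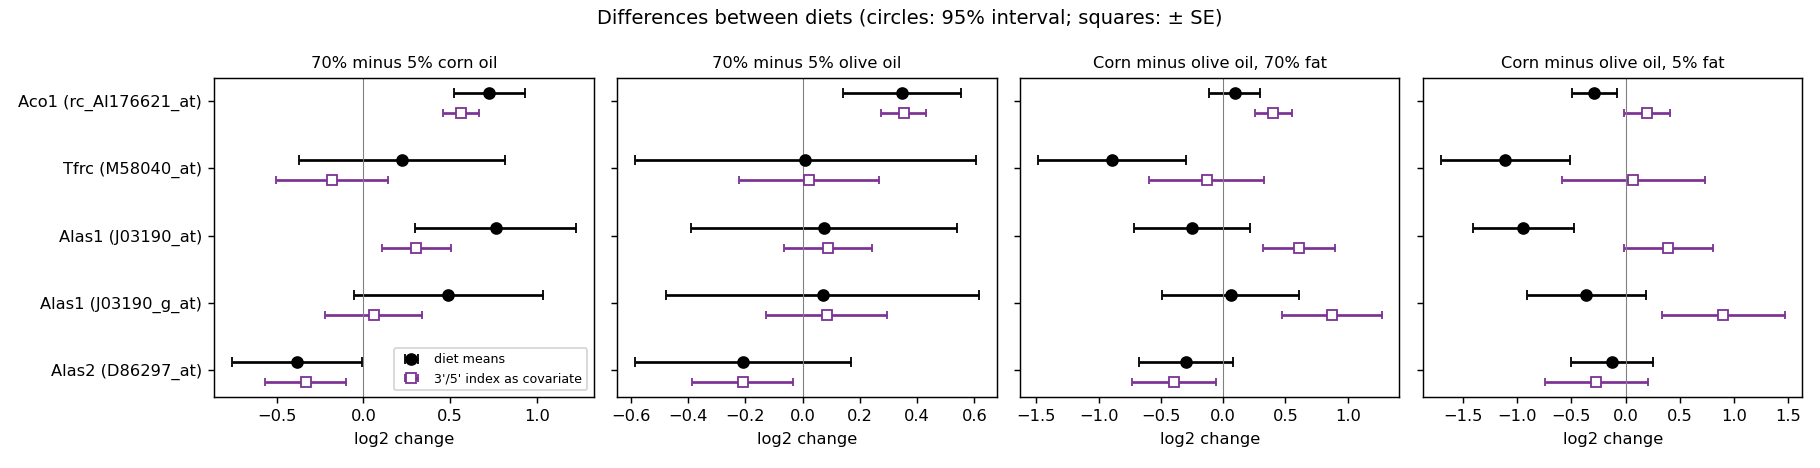
Differences between diets for each probe set on the log2 scale, each panel with its own axis range: circles with 95% intervals from the diet means, open squares with ± SE from the fit that includes the 3'/5' index. The fat changes of Aco1 stay above 0 in both fits. The corn minus olive differences of Tfrc and Alas1 at 5% fat are below 0 in the first fit, where the interval of J03190_g_at spans 0. In the second they are above 0 with wide SEs (Tfrc 0.07 ± 0.66, Alas1 0.39 ± 0.41 and 0.90 ± 0.57), and oil and index overlap in no array.

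Among other genes of iron uptake, storage, export and their regulators, 10 of 26 had probe sets of their own, 17 in all, and 0 passed the limma test with fat level under either oil. Of all probe sets 1.3% rose and 0.801% fell with corn oil, and 0.126% rose and 0.309% fell with olive oil. The median fat change of the list was 0.12 with corn and -0.05 with olive oil, beside -0.01 and 0.03 over all probe sets. Ireb2, the other iron regulatory protein, changed by 0.43 ± 0.16 with corn oil (limma adjusted p = 0.168) and by 0.17 with olive oil. Hfe, which binds the transferrin receptor, changed by 0.38 ± 0.17 with corn oil on 1 probe set (limma adjusted p = 0.258). On its other probe set the change was 0.21 ± 0.26. Bmp6, a signal for hepcidin, changed by 0.21 ± 0.09 with olive oil (limma adjusted p = 0.498) on 1 probe set and by 0.15 on the other.

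Between oils more of this list passed. At 5% fat 5 of 17 probe sets were lower and 0 higher with corn oil, where 9.36% of all probe sets were lower and 10.1% higher. Ireb2 was lower by 1.06 ± 0.16 (log2 change -1.06, limma adjusted p = 0.000775). The iron exporter Slc40a1 differed by -1.46 ± 0.35 (limma adjusted p = 0.0124) on 1 probe set and by -0.39 on the other. Hfe differed by -1.25 ± 0.17 (limma adjusted p = 0.000506) and, on its other probe set, by -0.98 ± 0.26 (limma adjusted p = 0.0184), and Hif1a, the hypoxia-inducible factor, by -0.90 ± 0.09 (limma adjusted p = 0.000196). At 70% fat 3 were lower and 1 higher, beside 4.55% and 3.96% of all probe sets, among them Ireb2 at -0.81 ± 0.16 (limma adjusted p = 0.0103). The higher one was Slc11a2, the divalent metal transporter, at 0.32 ± 0.07 (limma adjusted p = 0.0198), whose other probe sets were at 0.08 and -0.25. With the index as a covariate, Ireb2 at 5% fat was at -0.50 ± 0.40. In that fit Slc40a1 was at 0.46 ± 0.76 and 0.09 ± 0.59, and Hfe at -0.42 ± 0.39 and 0.40 ± 0.56. Oil and index overlap in no array, so that fit cannot tell their parts apart.

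Of 9 later enzymes and helpers of heme synthesis, 3 had probe sets, 4 in all, and 0 passed with fat level. Ppox, the protoporphyrinogen oxidase, changed on 1 of its 2 probe sets by -0.53 ± 0.14 with corn oil (limma adjusted p = 0.0676) and by -0.29 ± 0.14 with olive oil (limma adjusted p = 0.639), and on the other by -0.15 and -0.20. The first was higher with corn than with olive oil at 5% fat (0.79 ± 0.14, limma adjusted p = 0.00198) and at 70% fat (0.54 ± 0.14, limma adjusted p = 0.0325), and the other differed by 0.22 and 0.27. Urod, the decarboxylase of the pathway, changed by 0.05 with corn and 0.11 with olive oil. Alad had fat changes of -0.10 with corn and -0.07 with olive oil.

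Of 10 genes of heme breakdown and scavenging, 5 had probe sets, 7 in all, and 0 passed with fat level. Hmox1, the inducible heme oxygenase, changed by -1.42 ± 0.48 (limma adjusted p = 0.364) and -1.19 ± 0.44 on its 2 probe sets with olive oil. Both were highest in pool 3 of 5% olive oil, at 2.53 and 2.78, where the pool with the next highest value was at 0.37 and 0.81. Without that pool the changes were -0.66 and -0.48. Between oils at 5% fat 2 of the 7 were lower with corn oil, beside 9.36% of all probe sets: 1 probe set of Hmox1 (-1.78 ± 0.44, limma adjusted p = 0.0135, and -1.07 without that pool, still past the test) and the heme scavenger Hpx (-0.48 ± 0.15, limma adjusted p = 0.048, and 0.156 without that pool). The other probe set of Hmox1 differed by -0.97 ± 0.48 (limma adjusted p = 0.181), and by -0.21 without that pool.

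Of 16 other aconitase, iron-sulfur and isocitrate genes, 6 had probe sets, 15 in all. With corn oil 1.3% of all probe sets rose with fat level, and 1 of these 15 did. That was Idh1, the cytosolic isocitrate dehydrogenase that acts after aconitase in the cytosol, at 0.46 ± 0.08 (limma adjusted p = 0.0148, and 0.119 with the index). It changed by 0.24 ± 0.08 with olive oil (limma adjusted p = 0.372), and its second probe set lay at -0.49 with corn and -0.07 with olive oil. Between oils at 5% fat 4 of the 15 were higher and 3 lower with corn oil, beside 10.1% and 9.36% of all probe sets. Probe sets of the same gene went apart in several cases. The 3 of Etfdh, an iron-sulfur electron carrier, differed by -2.16, 0.40 and -0.16. Those of Uqcrfs1, the Rieske protein, differed by -1.02, 0.53 and 0.09, of which the first 2 passed, and those of Idh2 by 0.67 and -0.28. At 70% fat 1 of the 15 was higher and 3 lower, beside 3.96% and 4.55%. Fdx1, the adrenodoxin, was higher with corn oil at both levels on 1 probe set (0.78 ± 0.10 at each, limma adjusted p = 0.00188 at 70% and 0.000343 at 5% fat). Its other probe set passed at 5% fat (1.09 ± 0.32, limma adjusted p = 0.0308) and not at 70% fat (0.26 ± 0.32).

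Of 10 heme enzymes and regulators of Alas1, 6 had probe sets, 16 in all, and 0 passed with fat level under either oil. Por, which passes electrons to cytochromes P450, changed on probe set E01524cds_s_at by 0.40 ± 0.13 with corn oil (limma adjusted p = 0.128) and by 0.12 ± 0.13 with olive oil. On rc_AI137856_s_at it changed by 0.30 ± 0.15 with corn oil and by 0.38 ± 0.15 with olive oil (limma adjusted p = 0.468). On M10068mRNA_s_at it changed by -0.25 ± 0.17 with corn oil and by 0.11 ± 0.17 with olive oil. Between oils at 5% fat 2 of the 16 were higher and 5 lower with corn oil, beside 10.1% and 9.36% of all probe sets. Por differed by -0.71 ± 0.13 on E01524cds_s_at (limma adjusted p = 0.0029), by -0.62 ± 0.15 on rc_AI137856_s_at (limma adjusted p = 0.0109) and by 0.37 ± 0.17 on M10068mRNA_s_at (limma adjusted p = 0.141). The 5 probe sets of Cyb5r3, a cytochrome b5 reductase, ran from -2.12 ± 0.39 (limma adjusted p = 0.00287) to 0.27 ± 0.19. At 70% fat 3 were lower and 0 higher, beside 4.55% and 3.96%.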

How the data were processed

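The deposited table holds log2 values of 12 arrays for 8799 probe sets, made by the authors with GCOS and RMA (versions not stated), per the submitters' processing notes. The median of every probe set in it is 0 within 1e-06; the log base is not written there and was taken as 2, as RMA gives. Centred values do not show which probe sets are dim, so no filter on low values was possible. Precision is limited by having 3 arrays a diet. Controls (59) were left out. The annotation gave 1 symbol to 7006 probe sets, several to 308 and none to 1426, and 6985 of those with 1 took the GRCr8 symbol. Tests used limma 3.58.1 in R 4.3.3 with 1 mean per diet, 8 residual degrees of freedom, eBayes, two-sided p-values and Benjamini-Hochberg adjustment over all probe sets, with a threshold of 0.05. The code was tested on simulated data. Members and gene lists were chosen with earlier results of these data known. Named were all member probe sets, for each list and comparison up to 4 genes past the threshold or otherwise up to 2 with the smallest p, and the 5 (Aco1) or 3 genes most like each member; some are left out of the text, and a few genes such as Lcn2, Alad and the other probe sets of named genes were added after their values were seen. Alternatives were a second quantile normalization, array centring, robust moderation, the pool number as a block, the compared arrays alone, 1 value per gene, the 3'/5' index as a covariate and leaving out each array. List values without 1 pool, and lists with the index, were added after seeing the data.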

Additional observations from a re-analysis of the deposited data

How the results depend on the processing

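The olive oil fat changes of Aco1 and Alas2 kept their direction and stayed short of the threshold in all settings run. Counts of probe sets called moved more. With olive oil 38 were called, 98 after a second quantile normalization (38 higher, 60 lower), 22 with each array centred (4 higher, 18 lower, beside 11 and 27 before), 97 with the compared arrays alone, 64 with the index, and 10 (without pool 1 of 70% olive oil) to 69 (without pool 2 of 70% corn oil) when 1 array was left out. With corn oil 184 were called (114 higher, 70 lower), then 51 (26 higher, 25 lower), 53 and 40 with quantile normalization, the compared arrays alone and the index, 120 with 1 value per gene, and 59 (without pool 1 of 5% corn oil) to 348 (without pool 3 of 5% corn oil). Between oils at 70% fat 744 became 334 with the compared arrays alone, 0 with the index, 328 with 1 value per gene, and 311 to 1162 without 1 array. At 5% fat 1704 became 0 with the index, 801 with 1 value per gene and 1115 to 2065 without 1 array. For the difference between fat effects 0 became 1 with the pool number as a replicate block, and 0 to 10 without 1 array. Pool numbers did not pair the arrays: same-numbered arrays correlated from -0.19 to 0.23 in their deviations from the diet means, and 4 of 12 arrays correlated best with their own number; the block changed no call of the 5 probe sets.

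Directions of the 5 probe sets turned in these cases, besides those of Aco1 and Tfrc given with their values. With olive oil Tfrc was at -0.0146 with each array centred, -0.25 without pool 3 of 5% and -0.07 without pool 3 of 70% olive oil; Alas1 was at -0.0394 (J03190_at) and -0.10 (J03190_g_at) without pool 3 of 70%, and J03190_g_at at -0.03 without pool 3 of 5% olive oil. At 70% fat, corn minus olive, J03190_at was at 0.61 with the index, and J03190_g_at at -0.19 without pool 2 of 70% corn oil, -0.06 without pool 2 of 70% olive oil and -0.10 with 1 value per gene. At 5% fat the index turned Tfrc to 0.0702, J03190_at to 0.39 and J03190_g_at to 0.90, and Alas2 was at 0.00769 without pool 3 of 5% corn oil and 0.00705 without pool 2 of 5% olive oil. The highest or lowest values without 1 array were 0.203 for Tfrc, 0.151 for J03190_at and 0.1996 for J03190_g_at with olive oil, 0.363 for J03190_g_at at 70% fat and -0.336 for Alas2 at 5% fat. The fat change with corn oil minus that with olive oil turned to 0.04 for Alas2 without pool 3 of 5% olive oil and to -0.03 for Tfrc without pool 2 of 70% corn oil, and with the index for Tfrc and J03190_g_at. Tfrc at 70% fat passed after quantile normalization (limma adjusted p = 0.0375), without pool 2 of 70% corn oil (0.0171) and without pool 3 of 5% olive oil (0.0423), and had its highest adjusted p with the index (0.962). The causes were not tested.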
